A study of Mus musculus with 4 samples.

Results

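IL12RB1, IL12RB2, STAT4, TBX21, IL18R1 and IL18RAP encode the receptor chains and transcription factors through which T cells and natural killer (NK) cells read the cytokines IL-12 and IL-18. These 6 genes were chosen by name, from 33538 human genes counted, and were measured in human immune cells from humanised mice at 7 days after spinal cord injury (SCI). All 6 were detected in circulating T cells, and they differed in where they lay. Among the T and NK cells other than cycling ones, TBX21 lay largely in a small cytotoxic cluster of the main clustering. IL18RAP had its highest level there. IL12RB2 lay largely in the Treg-like cluster, STAT4 was highest in the CD8 T-like cluster, and IL12RB1 was found in every T cell cluster. At a finer clustering resolution STAT4, IL12RB2 or both had their highest level in the cytotoxic cluster instead. Between conditions, STAT4 and TBX21 were higher in SCI than in sham blood, by 1.61-fold and 1.69-fold over circulating T and NK cells other than cycling ones. The other 4 genes were not past 1.5-fold in any of the blood comparisons of these cells, where 8.04% to 12.8% of all genes were. Over all human cells 0 of the 6 were past 1.5-fold between SCI and sham blood, where 12.7% of all genes were. With the cytotoxic cluster left out, TBX21 was not higher in SCI than in sham blood. With equal weight for each cluster, STAT4 fell short of 1.5-fold.

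IL-12, made by myeloid cells, binds a receptor built from the IL12RB1 and IL12RB2 chains. IL12RB1 also serves the IL-23 receptor, so that IL12RB2 is the chain particular to IL-12. The receptor acts through the kinases TYK2 and JAK2 and the transcription factor STAT4, and with it TBX21 (T-bet), the transcription factor of type 1 T cells, drives interferon-gamma. IL-18 binds IL18R1, and the accessory chain IL18RAP completes the signalling receptor, which acts through the adaptor MYD88. In blood, NK cells and memory CD8+ T cells are the usual responders to the pair.

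The cells came from huNSG-SGM3 mice. On the NOD.Cg background these carry the alleles Prkdcscid and IL2rgtm1Wjl, and from MloySzJ the transgene Tg(CMV-IL3,CSF2,KITLG)1Eav. The host lacks T, B and NK cells of its own and expresses human IL3, CSF2 and KITLG from the CMV promoter, and all hosts, controls included, had been irradiated and engrafted with CD34+ cells of human cord blood. Hosts are labelled as 15 weeks old. The 4 libraries were naïve blood (no surgery), sham blood (laminectomy at T9), SCI blood and SCI cord, the last 3 at 7 days after surgery, each made from live human CD45+ cells sorted from several pooled animals. Naïve and sham hosts were male and SCI hosts of both sexes, so that host sex and injury cannot be told apart. There was 1 library per condition. No test between conditions can therefore be made, and every interval given here is a 95% interval for counting error only, which leaves out differences between animals, sorts and libraries.

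After filtering, 6324 naïve, 4645 sham and 5934 SCI blood cells and 118 cord cells remained, with between 27695487 and 31179110 human UMIs (unique molecular identifiers, 1 per captured transcript) in each blood library and 1430777 in the cord library. Median depth per cell was 3697.5, 5230 and 4655 UMIs in naïve, sham and SCI blood, the order of every set of 3 values below. No pair of libraries shared more than 10 cell barcodes. Clustering, made without the 6 genes and without the other genes of their pathways, gave 13 clusters. The T and NK cells comprised 6 clusters with 4218 naïve, 3685 sham and 4635 SCI blood cells, of which 99.7% held a UMI of a CD3 gene. They were a cytotoxic memory T-like cluster (1218 blood cells; CD8A in 56.6%, CD4 in 6.32%), a CD8 T-like cluster (2695 cells; CD8A in 68.1%, CCR7 in 88.0%), a Treg-like cluster, a CD4 T-like cluster, a naive T-like cluster, and an unnamed T cell cluster led by CCR10 and CD40LG. The naive T-like cluster held CCR7 in 86.6% of cells but also the granzyme gene GZMA in 89.6%, so its name rests on part of its genes. Cycling cells (589 blood cells, 98.6% with a CD3 UMI) were kept apart and are not counted among the T and NK cells below.

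NK cells did not form a stable cluster. At the finer resolution of 1.5 a cluster named NK-like held 12 cells, 9 of them from SCI blood, and with another clustering seed it held 0. The name rested on 1 NK marker among its leading genes. Markers of innate-like T cells had a higher median fold over other cells than NK markers, at 12.97 against 9.53. NK cells were therefore taken by their genes, as the T and NK cells with at least 3 of 8 NK markers (NCAM1, NCR1, KLRF1, KLRC1, SH2D1B, TYROBP, FCER1G and XCL1), a rule set after the data were seen. This gave 11, 12 and 25 blood cells, all of them inside the cytotoxic memory T-like cluster, where they made up 2.20%, 4.04% and 5.95% of its cells. TYROBP was found in 97.9% and FCER1G in 93.8% of these NK-marker cells, since the rule drew on both, but NCAM1 and NCR1 in only 16.7% each. A CD3 UMI was found in 47.9% of them, so that T cells may remain among them. The T cell receptor gene TRDC was found in 85.4%, but it was not particular to T cells here, with 18.9% of basophil or mast-like cells holding it. Results for the cytotoxic cluster are given with and without them.

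Levels are given as CPM, in which the human UMIs summed over a class of a library are brought to the same total, leaving out ribosomal and mitochondrial genes. B-like cells marked by TCL1A, at median depths of 3473, 5664 and 4912 UMIs, served as the measure of free RNA for the T cell genes. For TBX21 this measure has a limit, given with that gene. Shares of cells were also taken after thinning each cell to 1000 UMIs, since the libraries differed in depth. In bulk sums of this kind, fewer cells with a transcript and less transcript per cell cannot be told apart.

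IL12RB1, the chain common to the IL-12 and IL-23 receptors, was found at near-equal levels in the blood libraries. T and NK cells held 39.5, 39.6 and 36.7 CPM, from 455, 570 and 564 UMIs. The intervals of the 3 libraries overlapped. After thinning, 2.99%, 2.63% and 2.57% of these cells held a UMI, against 0.817%, 1.16% and 0.455% of TCL1A B-like cells. The Treg-like cluster led, with 54.7, 50.2 and 45.3 CPM. The cytotoxic memory T-like cluster followed with 41.8, 45.8 and 53.8 CPM, a range that overlapped that of the Treg-like cluster. The other 4 T cell clusters lay between 21.9 and 40.6 CPM, with the CD8 T-like cluster (28.9 to 31.7 CPM) below the CCR10 and CD40LG cluster (34.4 to 37.7 CPM) and the ranges of the CD4 T-like and naive T-like clusters overlapping both, and all exceeded the 8.51 to 15.6 CPM of the TCL1A B-like cells. IL12RB1 was thus present in every T cell cluster, from 29.7 CPM (naive T-like) to 50.4 CPM (Treg-like) with the blood libraries pooled.

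IL12RB2, the chain particular to IL-12, was sparse. T and NK cells held 3.47, 4.37 and 4.42 CPM, from 40, 63 and 68 UMIs. Of these UMIs, 70.0%, 65.1% and 60.3% lay in the Treg-like cluster, whose level was 9.69, 11.1 and 17.1 CPM (28, 41 and 41 UMIs) and thus highest in SCI blood. By comparison, the cytotoxic memory T-like cluster held 3.48, 5.43 and 9.20 CPM from 5, 7 and 13 UMIs, below the Treg-like cluster in each library. The CD8 T-like and the CCR10 and CD40LG clusters had at most 1.47 CPM, and the TCL1A B-like cells at most 0.327 CPM. In the NK-marker cells, 2, 5 and 6 UMIs gave 96.2, 112 and 103 CPM, so that very few cells carried a large part of the UMIs of the cytotoxic cluster.

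STAT4, the transcription factor that the IL-12 receptor activates, followed another order. Its level in T and NK cells was 16.6, 14.9 and 24.0 CPM, from 191, 215 and 369 UMIs. The interval in SCI blood, 21.6 to 26.6 CPM, lay above the intervals of both controls, which ended at 19.1 and 17.1 CPM and overlapped each other. The CD8 T-like cluster held most, with 34.0, 31.7 and 41.4 CPM. It supplied 27.7%, 31.6% and 46.9% of the STAT4 UMIs of T and NK cells. The cytotoxic cluster had 20.9, 17.9 and 38.2 CPM from 30, 23 and 54 UMIs, and its range overlapped that of the CD8 T-like cluster and those of the naive T-like (15.3 to 29.6 CPM) and Treg-like (15.2 to 20.0 CPM) clusters. The CCR10 and CD40LG cluster, at 7.44, 5.87 and 11.8 CPM, was lowest among the T cell clusters in naïve and sham blood and level with the CD4 T-like cluster (11.7 CPM) in SCI blood, above the 1.22 to 1.42 CPM of TCL1A B-like cells. Outside the T cells, basophil or mast-like cells had 101, 88.7 and 85.6 CPM from 27, 49 and 40 UMIs.

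Among the T and NK cells, TBX21 was found mainly in the cytotoxic memory T-like cluster. That cluster held 41.1 CPM in naïve blood (59 UMIs, interval 31.3 to 53.0), 32.6 CPM in sham blood (42 UMIs, 23.5 to 44.1) and 73.6 CPM in SCI blood (104 UMIs, 60.2 to 89.2). SCI blood lay above both controls, whose intervals overlapped. The cluster supplied 67.0%, 56.0% and 76.5% of all TBX21 UMIs of T and NK cells, although it held only 501, 297 and 420 of their 4218, 3685 and 4635 cells. Over all human cells, cycling and B-like cells included, TBX21 had 168, 141 and 193 UMIs, of which the cluster held 59, 42 and 104. The CD8 T-like cluster, highest for STAT4, had 1.28, 0.467 and 0.717 CPM of TBX21, and the naive T-like cluster had no UMI, which allows at most 1.61 CPM in SCI blood (the level of 3 UMIs). The Treg-like cluster (2.08 to 4.89 CPM) and the CCR10 and CD40LG cluster (2.30 to 4.99 CPM) had ranges within that of TCL1A B-like cells (2.04 to 5.20 CPM). For TBX21 the TCL1A B-like cells lay above the CD8 T-like cluster, so they are not a sure measure of free RNA. Whether the Treg-like and the CCR10 and CD40LG levels are background was not tested. NK-marker cells held 529, 268 and 207 CPM from 11, 12 and 12 UMIs. The cycling cells, kept apart, held 13.8 to 14.6 CPM of TBX21 from 84 UMIs over the blood libraries. B-like cells marked by ITGAX also carried TBX21, with 33.8, 73.7 and 41.5 CPM from 39, 21 and 11 UMIs, in a cluster where 31.5% of blood cells held a CD3 UMI and 28.7% of cells were marked as doublets.

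The higher TBX21 level in SCI blood was not seen as a larger share of positive cells once depth was made equal. After thinning, 4.79%, 3.03% and 4.52% of cytotoxic cells held a TBX21 UMI, with 3 intervals that overlapped, whereas the shares before thinning were 9.78%, 10.1% and 16.7%. Positive cells held 1.20, 1.40 and 1.49 UMIs on average. The thinned share does not follow the order of the CPM, and no order is read from it.

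**Figure D1:**
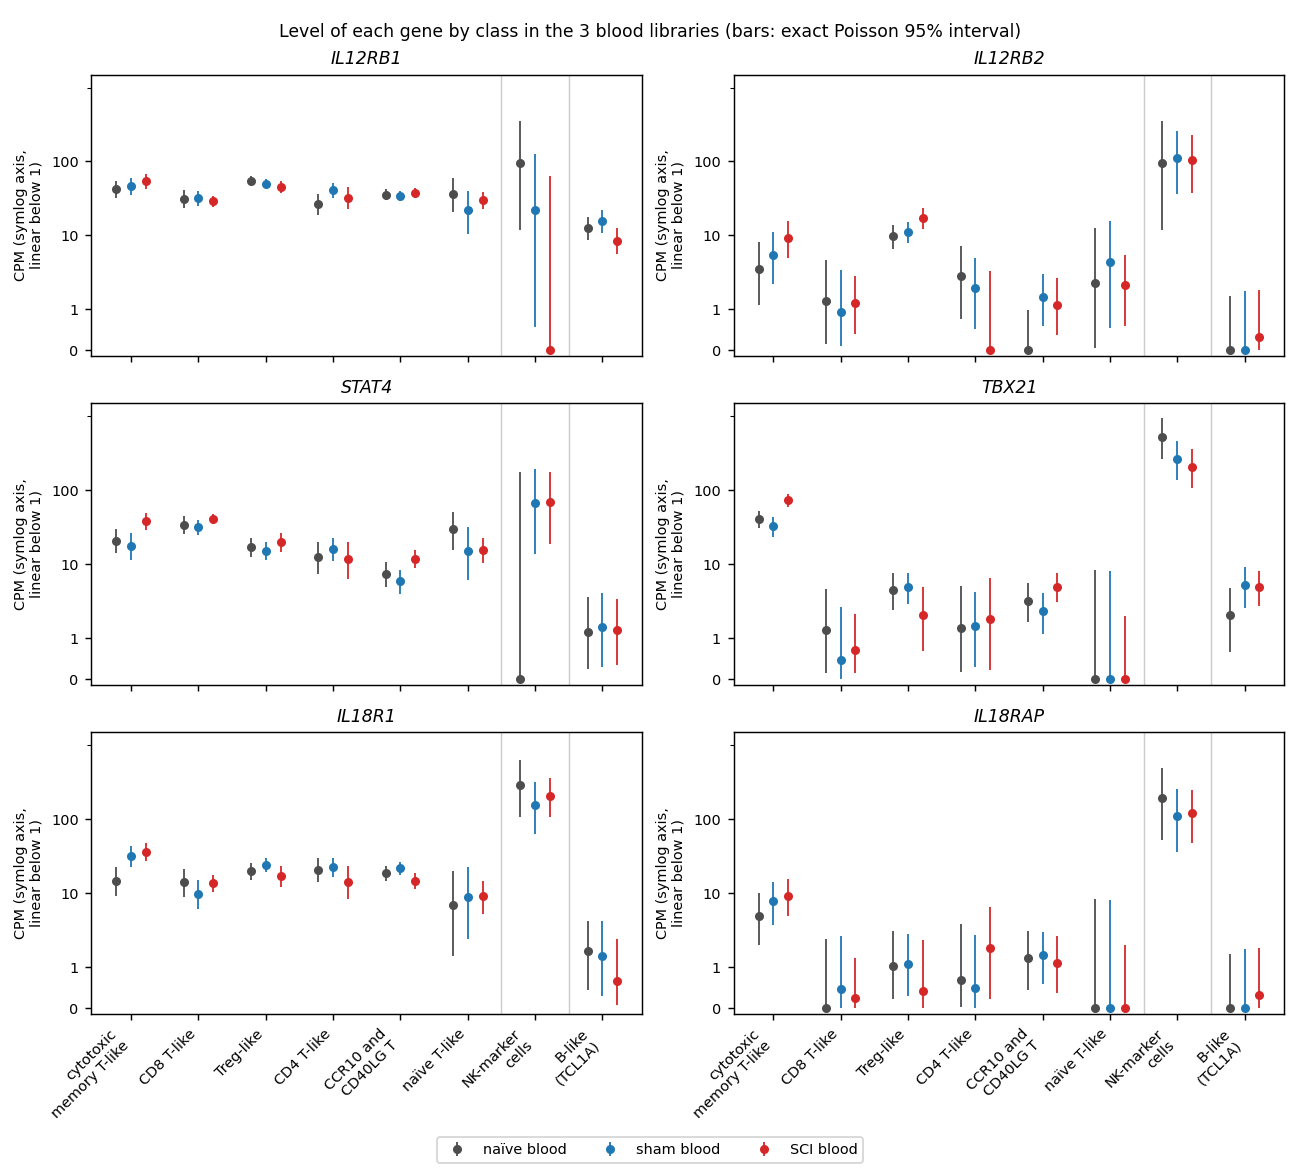
Levels of the 6 genes in CPM (y axis, linear below 1 and logarithmic above) by cell class (x axis) in naïve, sham and SCI blood, each point 1 library and each bar its exact Poisson 95% interval. Among the 6 clusters of the main clustering TBX21 was highest in the cytotoxic memory T-like class (32.6 to 73.6 CPM), STAT4 in the CD8 T-like class (31.7 to 41.4 CPM) and IL12RB2 in the Treg-like class (9.69 to 17.1 CPM). The NK-marker cells had 96.2 to 112 CPM of IL12RB2, 0 to 69.0 CPM of STAT4 and 207 to 529 CPM of TBX21 from few UMIs.

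IL18R1, the ligand-binding chain of the IL-18 receptor, was spread over T cells. T and NK cells held 17.7, 21.3 and 16.1 CPM, from 204, 307 and 247 UMIs. In the cytotoxic cluster it had 14.6, 31.8 and 36.1 CPM (21, 41 and 51 UMIs), with both operated libraries above naïve blood. Thinned shares followed the same course, at 0.998%, 3.37% and 3.33% of cells. The Treg-like, CD4 T-like and CCR10 and CD40LG clusters had overlapping ranges between 14.4 and 24.4 CPM, and in each of them SCI blood was lowest and sham blood highest. The CD8 T-like (9.80 to 14.1 CPM) and naive T-like (6.84 to 9.12 CPM) clusters were lower, and TCL1A B-like cells had at most 1.63 CPM. NK-marker cells had 289, 156 and 207 CPM from 6, 7 and 12 UMIs, and basophil or mast-like cells 55.9, 81.4 and 70.6 CPM.

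IL18RAP, the accessory chain, was the rarest in T and NK cells, with 16, 23 and 22 UMIs (1.39, 1.60 and 1.43 CPM). The cytotoxic cluster held 7, 10 and 13 of these, or 43.8%, 43.5% and 59.1%, at 4.88, 7.76 and 9.20 CPM. Its intervals overlapped in the 3 libraries. No other T cell cluster exceeded 1.80 CPM, and the naive T-like cluster had no UMI. The NK-marker cells alone carried 4, 5 and 7 UMIs, at 192, 112 and 121 CPM. The level of IL18RAP was thus highest in the cytotoxic cluster and its NK-marker cells, although in naïve and sham blood most of its UMIs lay in the other, larger T cell clusters, where IL18R1 was found at levels well above those of IL18RAP.

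**Figure D2:**
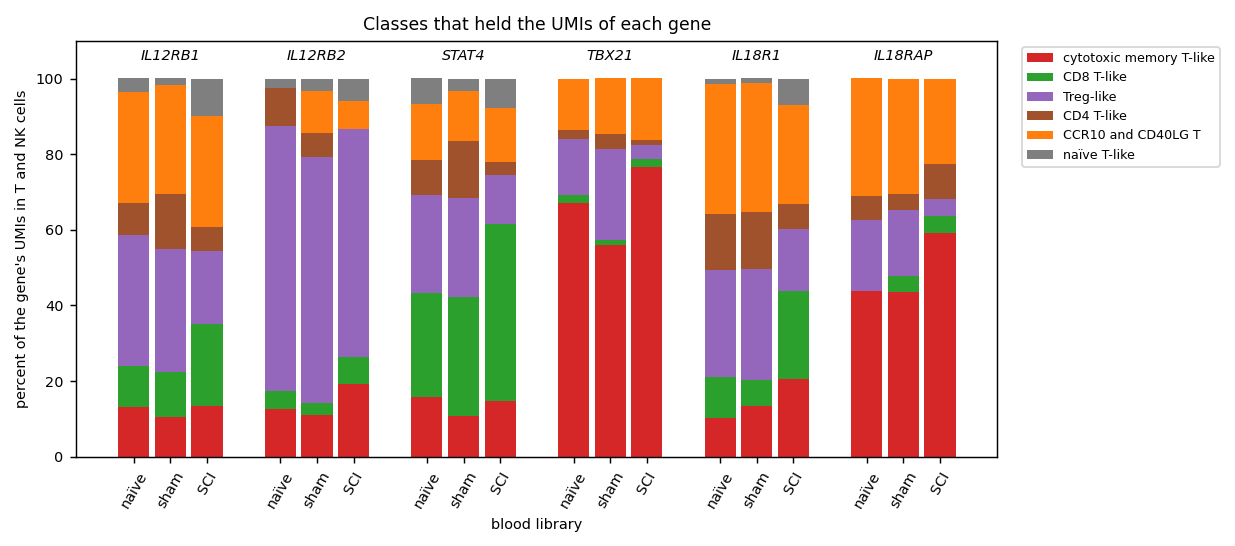
Share of each gene's UMIs in T and NK cells (y axis, percent) that came from each of the 6 T cell clusters, by gene and blood library (x axis). The cytotoxic memory T-like cluster supplied 56.0% to 76.5% of TBX21 and 43.5% to 59.1% of IL18RAP, and the Treg-like cluster 60.3% to 70.0% of IL12RB2.

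Setting sham against naïve blood asks what the operation itself changed. Over T and NK cells, 0 of the 6 genes were past 1.5-fold, where 8.04% of 12879 genes with at least 20 UMIs were. TBX21 was lower in sham blood (log2 ratio -0.55, interval -1.02 to -0.09), and IL18R1 higher, with a log2 ratio of 0.27 (0.01 to 0.53). IL12RB1 had a log2 ratio whose interval ran from -0.18 to 0.18, well within 1.5-fold as far as counting goes. IL12RB2, STAT4 and IL18RAP had log2 ratios of 0.33, -0.15 and 0.19, with intervals that included 0.

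The comparison of SCI with naïve blood also had 0 of the 6 genes past 1.5-fold, where 12.8% of 13004 genes were. STAT4 was nearest, with a log2 ratio of 0.53 (0.28 to 0.79). TBX21 had 0.21 (-0.19 to 0.61), IL12RB2 0.34, IL12RB1 -0.11, IL18R1 -0.14 and IL18RAP 0.03, each of these 5 with an interval that included 0.

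The comparison of SCI with sham blood, which sets the cord injury against the laminectomy alone, had 2 of the 6 genes past 1.5-fold, where 11.6% of 13168 genes were. STAT4 was higher in SCI blood with a log2 ratio of 0.68 (0.44 to 0.93) and TBX21 with 0.76 (0.35 to 1.19). IL18R1 was lower, at -0.41 (-0.66 to -0.16), and short of 1.5-fold. IL12RB1 (-0.11), IL12RB2 (0.02) and IL18RAP (-0.16) had intervals that included 0. Over all human cells 0 of the 6 genes were past 1.5-fold in this comparison, where 12.7% of 14493 genes were. STAT4 had 0.50 and TBX21 0.38 there. The comparisons share libraries and are not independent of each other.

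These ratios moved with the make-up of the T cells. The CD8 T-like cluster, where STAT4 was highest, made up 10.3%, 13.2% and 24.1% of the human cells. When each cluster was given the same weight in each library, the log2 ratio of STAT4 against sham blood was 0.47, below 1.5-fold, and that of TBX21 was 0.84. With the cytotoxic cluster left out, a setting added after the data were seen, STAT4 had 0.62 against sham blood while TBX21 went to -0.13. Summed over the T cells outside that cluster, TBX21 was thus not higher in SCI blood and STAT4 was, and single clusters among them differed in direction for both genes.

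**Figure D3:**
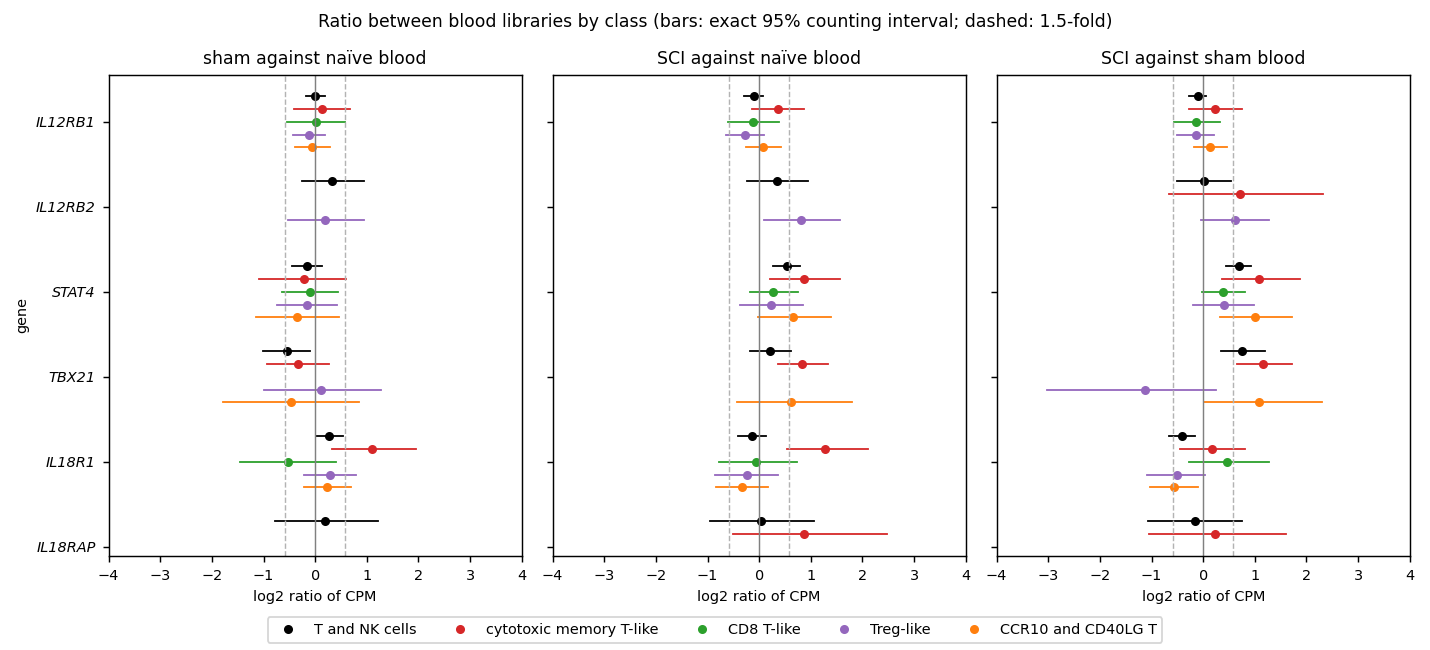
Log2 ratios of the 6 genes (x axis, in CPM) for the 3 comparisons of blood libraries (panels), in T and NK cells and in 4 of their clusters (colours), with exact conditional 95% intervals for counting error and dashed lines at 1.5-fold. In T and NK cells only STAT4 (0.68) and TBX21 (0.76) passed 1.5-fold, both in SCI against sham blood, where 11.6% of all genes did.

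Within the cytotoxic memory T-like cluster the 6 genes differed more. With sham set against naïve blood, 1 of the 4 genes with enough UMIs was past 1.5-fold, against 13.3% of all genes. This was IL18R1, with a log2 ratio of 1.10 (0.33 to 1.95). With SCI set against naïve blood 4 of 5 were, all higher, against 14.9% of all genes. They were IL18R1 at 1.28 (0.54 to 2.11), STAT4 at 0.86 (0.20 to 1.57), TBX21 at 0.84 (0.37 to 1.33) and IL18RAP at 0.87, the last with an interval of -0.52 to 2.48 that included 0. With SCI set against sham blood 3 of 6 were, again all higher, against 13.6% of all genes. TBX21 had 1.17 (0.65 to 1.73), STAT4 1.08 (0.37 to 1.87) and IL12RB2 0.72 (-0.67 to 2.33), the last from 13 and 7 UMIs. In this cluster IL18R1 was thus higher in both operated libraries than in naïve blood, and TBX21 and STAT4 were higher in SCI blood than in either control.

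Some of these values depended on where the cluster was drawn. With another clustering seed the cluster was smaller (371, 157 and 308 cells), and against sham blood TBX21 had a log2 ratio of 0.70 and STAT4 of 0.67, both still past 1.5-fold, while IL12RB2 went to -0.12. At resolutions of 0.4 and 1.5 TBX21 stayed past 1.5-fold, at 0.71 and 0.69, but STAT4 did not, at 0.46 and 0.58. Over all settings run for this cluster, IL18R1 against naïve blood was between 1.04 and 1.70 in SCI blood and between 0.93 and 1.91 in sham blood. In this cluster 13.0% of cells were marked as doublets and kept, and with all marked doublets removed TBX21 and STAT4 had 1.26 and 1.04 against sham blood.

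The NK-marker cells were a larger part of the cluster in SCI blood. Without them, also a setting added after the data were seen, TBX21 had a log2 ratio of 0.99 against naïve and 1.48 against sham blood, STAT4 0.79 and 1.18, and IL18R1 1.41 against naïve blood. IL18RAP then had 3, 5 and 6 UMIs and IL12RB2 3, 2 and 7, too few for a ratio. The values of TBX21, STAT4 and IL18R1 were therefore as large or nearly so without the NK-marker cells.

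Other T cells gave fewer differences. In the CCR10 and CD40LG cluster 0 of 4 genes were past 1.5-fold between sham and naïve blood (8.19% of all genes). Between SCI and naïve blood 2 of 4 were (10.2% of all genes), STAT4 at 0.65 (-0.02 to 1.38) and TBX21 at 0.62 (-0.43 to 1.80). Between SCI and sham blood 2 of 4 were (9.05% of all genes), STAT4 at 1.00 (0.32 to 1.73) and TBX21 at 1.08 (0.01 to 2.31). The TBX21 ratios there compare levels within the range of the TCL1A B-like cells. STAT4 was thus higher in SCI than in sham blood in a second T cell cluster, with an interval that left out 0.

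In the Treg-like cluster, where IL12RB2 was highest, 0 of 5 genes were past 1.5-fold between sham and naïve blood (8.54% of all genes). Between SCI and naïve blood 1 of 4 was (9.97% of all genes), IL12RB2 at 0.81 (0.09 to 1.56). Between SCI and sham blood 2 of 5 were (10.2% of all genes), IL12RB2 at 0.62 (-0.05 to 1.28) and TBX21, lower, at -1.13 (-3.02 to 0.25) from 5 and 18 UMIs. Of these, the interval of IL12RB2 against naïve blood alone left out 0.

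In the CD8 T-like cluster 0 of the 3 genes with enough UMIs were past 1.5-fold in any comparison, where 10.1% (sham and naïve), 11.1% (SCI and naïve) and 9.25% (SCI and sham) of all genes were. STAT4 had 0.38 (-0.03 to 0.81) against sham blood. In the CD4 T-like cluster 1 of 3 genes was past 1.5-fold between sham and naïve blood (10.7% of all genes), IL12RB1 at 0.61 (0.05 to 1.21). Between SCI and naïve blood 0 of 3 were (13.3% of all genes), and between SCI and sham blood 1 of 3 was (12.4% of all genes), IL18R1 at -0.63 (-1.58 to 0.19). In the naive T-like cluster both genes with enough UMIs were lower in sham than in naïve blood (2 of 2, 16.7% of all genes), IL12RB1 at -0.71 and STAT4 at -0.90, with intervals that included 0. STAT4 was lower there in SCI than in naïve blood as well, at -0.96 (-1.92 to 0.14) from 29 and 13 UMIs (1 of 3 genes, 18.3% of all genes), and 0 of 3 were past 1.5-fold between SCI and sham blood (17.8% of all genes).

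The other genes of both pathways, a list of 54 of which 47 had enough UMIs in T and NK cells, moved in both directions. Past 1.5-fold, 2 were higher and 6 lower in sham than in naïve blood (median log2 ratio -0.112), 4 higher and 6 lower in SCI than in naïve blood (-0.063), and 7 higher and 2 lower in SCI than in sham blood (0.0484). The median over all genes tested was -0.0293, -0.0182 and 0.0139 in these comparisons. Over all genes tested, 8.04%, 12.8% and 11.6% were past 1.5-fold in either direction. Of the 10 kinases and adaptors, 1 (IRAK2) was past 1.5-fold between sham and naïve blood and 0 in either comparison with SCI blood, counts near those shares of all genes. TYK2, the kinase bound to IL12RB1, had 29.4, 29.7 and 28.9 CPM. JAK2, the kinase of IL12RB2, had 16.5, 17.2 and 14.8 CPM. MYD88, the adaptor of the IL-18 receptor, had 74.6, 72.2 and 61.0 CPM.

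Among the targets, 6 of 15 were higher and 1 lower in SCI than in sham blood, where 841 of the 13168 genes tested were higher and 680 lower. IFNG, the product most closely tied to IL-12 and IL-18, had 4.77, 4.23 and 6.63 CPM (55, 61 and 102 UMIs), a log2 ratio of 0.64 (0.18 to 1.13) against sham blood. The chemokine genes CCL5 and CCL4 were higher as well, CCL5 at 532, 360 and 667 CPM and CCL4 at 64.3, 20.8 and 32.9 CPM, so that CCL4 was highest in naïve blood. GZMB, a granzyme gene, was higher in both operated libraries (20.8, 37.2 and 45.6 CPM). IL2RA, the alpha chain of the IL-2 receptor, was lower in SCI blood, at 61.3, 53.0 and 28.1 CPM, as was the Treg-like share of cells, at 17.8%, 23.1% and 12.5%. EOMES, the T-box factor related to TBX21, had 32.5, 17.3 and 23.0 CPM.

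In the cytotoxic cluster, 10 of 41 genes of the list were higher and 3 lower in SCI than in sham blood (median log2 ratio 0.292), where 13.6% of all genes were past 1.5-fold in either direction. IFNG had 26.5, 20.2 and 49.6 CPM (38, 26 and 70 UMIs), a log2 ratio of 1.28 (0.63 to 2.01) against sham and 0.90 (0.31 to 1.51) against naïve blood. This was the order found for TBX21 in the same cells. TNF (1.62), CCL3 (1.38), XCL2 (1.15) and CCL5 (0.73) were also higher than in sham blood, and of the feedback inhibitors SOCS3 (1.45) and CISH (1.33). The lower included IL6ST (-0.80), the signalling chain of the IL-6 receptor family, and IL1RAP (-0.74), the accessory chain of the IL-1 receptor, the latter from 9 and 14 UMIs. EOMES differed from TBX21 in its order, with 170, 60.5 and 81.4 CPM. XCL1, one of the markers by which the NK-marker cells were taken, had a log2 ratio of 1.45 from 25 and 8 UMIs, and those cells were a larger part of the cluster in SCI blood. Without them 9 of 40 genes were higher and 3 lower, with IFNG, TNF, CCL3, CCL5, XCL2, CISH and SOCS3 still among the higher.

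**Figure D4:**
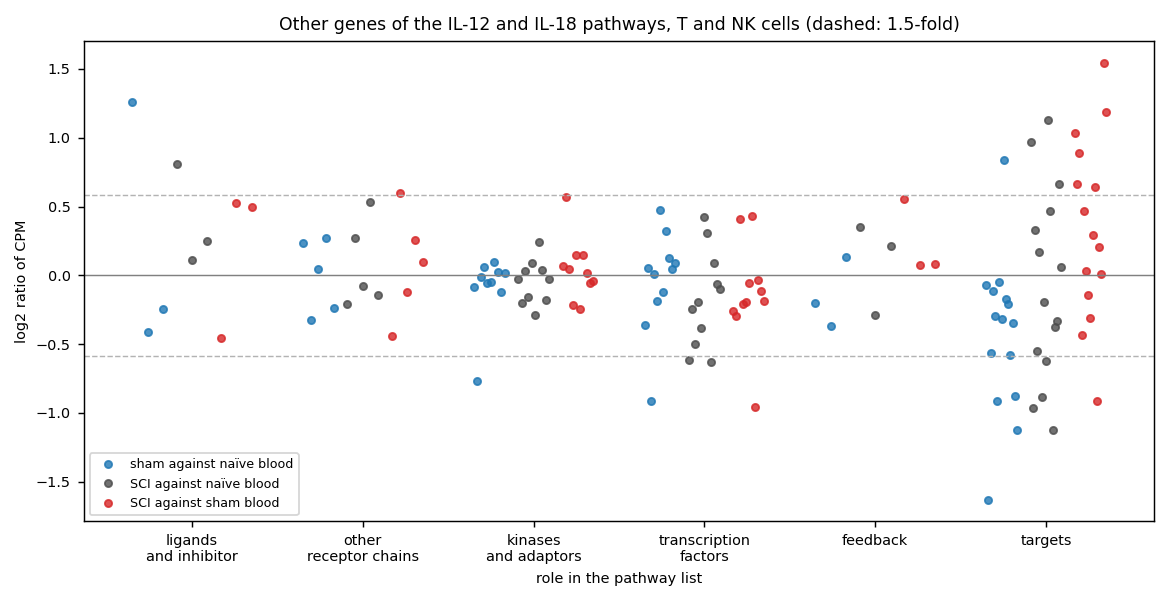
Log2 ratios of CPM (y axis) of the other IL-12 and IL-18 pathway genes in T and NK cells by role (x axis), 1 point per gene with at least 20 UMIs, coloured by comparison of blood libraries, with dashed lines at 1.5-fold. The 10 kinases and adaptors lay within 1.5-fold in both comparisons with SCI blood. Of 15 targets, 6 were higher and 1 lower past 1.5-fold in SCI than in sham blood. Of all genes, 12.8% were past 1.5-fold between SCI and naïve blood and 11.6% between SCI and sham blood.

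The genes whose levels ran most like each of the 6 across 18 profiles (6 T cell clusters in 3 blood libraries) were sought among genes other than the 6, as a description, since profiles of 1 library or 1 cluster share cells, depth or sort. For TBX21 they were GNLY (Pearson r = 0.939), which encodes a protein of cytotoxic granules, CEBPD (0.928) and GSTP1 (0.923). IL18RAP ran with GSTP1 (0.902), CX3CR1 (0.900) and ITGAL (0.893), and with TBX21 itself at r = 0.948. STAT4 ran with POLR2F (0.867), RAP1B (0.852) and SNX14 (0.842), and had r = 0.0807 with TBX21 and 0.0994 with IL12RB1. IL12RB1 ran with CTSC (0.849), VTI1B (0.845) and CXCR6 (0.841), IL12RB2 with ANKRD10 (0.861), CASP1 (0.791) and CTSA (0.769), and IL18R1 with SP140 (0.880), PPP1R12A (0.870) and EFHD2 (0.852).

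The injured cord yielded 67 T and NK cells, at a median depth of 7959 UMIs against 4548 in SCI blood. These held 24 UMIs of IL12RB1 (58.1 CPM), 5 of IL12RB2 (12.1 CPM), 25 of STAT4 (60.5 CPM), 5 of TBX21 (12.1 CPM), 14 of IL18R1 (33.9 CPM) and 2 of IL18RAP (4.84 CPM). All 6 genes had a ratio to SCI blood of at least 1.5-fold, where 36.9% of all genes differed by that much in either direction. TBX21 reached this threshold only through the 0.5 UMIs added to each count, the levels being 12.1 and 8.84 CPM. The intervals left out 0 for STAT4 (log2 ratio 1.36, 0.69 to 1.92), IL18R1 (1.13, 0.19 to 1.85) and IL12RB1 (0.69, 0.01 to 1.25), and included it for IL12RB2, TBX21 and IL18RAP. Within clusters the order was not the same for every gene, since in the 12 cytotoxic memory T-like cord cells STAT4 had a log2 ratio of 2.17 with an interval that left out 0, but TBX21 -0.84 and IL12RB1 -0.39, each from 2 cord UMIs, and the CD8 T-like cord cells had no UMI of IL12RB1. No cord of naïve or sham hosts was analysed here, and the cord cells passed a magnetic enrichment that blood cells did not, so that tissue and preparation cannot be told apart.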

How the data were processed

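Droplet-based 3′ scRNAseq libraries were aligned by the authors with Cell Ranger to the GRCh38 and mm10 genomes joined as 1 reference, and the deposited files hold raw UMI counts per gene and barcode. All 4 libraries were used, 1 per condition. Barcodes with over 50% of UMIs on human genes were kept, outliers beyond 3 median absolute deviations were removed, and doublets were marked by Scrublet score (0.8% per 1000 barcodes) and removed above 3000 genes. Cells were clustered in scanpy 1.11.5 with the Leiden method of igraph 0.11.9 (2000 variable genes, 30 components rounded to 3 decimals, 15 neighbours, resolution 0.8), without the 6 genes and the pathway list. NK-marker cells, a class set after the data were seen, were T and NK cells with at least 3 of 8 NK markers. UMIs were summed per class and library, and CPM taken over human genes other than ribosomal and mitochondrial ones. Ratios had 0.5 UMIs added and needed 20 UMIs over both libraries and 10 cells in each. Intervals were exact Poisson, exact binomial (Clopper-Pearson) and exact conditional binomial, from scipy 1.17.1 (Python 3.11.15, numpy 2.4.6). TMM factors came from edgeR 4.0.16 in R 4.3.3, as an alternative. Scripts were tested on simulated data. Replicates being absent, no test was run. The 6 genes, the gene lists and the cell type markers were chosen with earlier results of these data known. Pathway genes were named when past 1.5-fold with at least 100 UMIs over both libraries in T and NK cells, or for their role beside a member. In the cytotoxic cluster, the pathway genes named beyond that rule (TNF, CCL3, XCL1, XCL2, CISH, SOCS3, IL6ST and IL1RAP) were chosen after their values were seen. Genes most like a member were the 3 with the highest Pearson r among genes other than the 6 and over 50 CPM in at least 1 profile. Clusters were named from marker genes, so that names may differ from those of the study. Precision is limited by the number of UMIs of each gene, given beside its level. The values of 1 gene of the pathway list are not reported here.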

Additional observations from a re-analysis of the deposited data

Results flagged for a closer look

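With SCI set against naïve blood, the log2 ratios of STAT4 stood past 1.5-fold in opposite directions in different T cell clusters, at 0.86 in the cytotoxic memory T-like and 0.65 in the CCR10 and CD40LG cluster against -0.96 in the naive T-like cluster. With SCI set against sham blood, TBX21 had 1.17 in the cytotoxic memory T-like and 1.08 in the CCR10 and CD40LG cluster but -1.13 in the Treg-like cluster. The levels of TBX21 in the latter 2 clusters lay within the range of TCL1A B-like cells, and whether they are background was not tested. With sham set against naïve blood, IL12RB1 had 0.61 in the CD4 T-like but -0.71 in the naive T-like cluster. With 1 library per condition, these differences between clusters were not tested, and the ratios of 0.65, -0.96, -1.13 and -0.71 had counting intervals that included 0.

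Host transcripts of the same pathways were found in mouse barcodes, which the comparisons above did not use. Naïve, sham and SCI blood held 1411, 1990 and 1230 such barcodes, and CPM are over their mouse UMIs. Il18 had 19.1 CPM in sham and 16.0 in SCI blood, and Il18bp, which encodes the inhibitor that binds IL-18, had 7.11 and 7.01 CPM. Stat4 had 24.4 and 19.4 CPM, Il18r1 4.91 and 6.34 CPM, and Il18rap 62.9 and 72.8 CPM. Naïve blood held 0, 1, 2, 0 and 7 UMIs of these 5 genes. The make-up of the mouse barcodes moved with them: the haemoglobin gene Hbb-bs took 43.3%, 11.1% and 16.1% of their mouse UMIs, and the neutrophil gene S100a9 took 0.186%, 5.82% and 5.69%, in the same order. Its part in the result was not tested, and the cells had been sorted for human CD45.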

How the results depend on the processing

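The count of genes past 1.5-fold in T and NK cells was 0 between sham and naïve, 0 between SCI and naïve and 2 between SCI and sham blood. It changed under 4 settings. As UMIs per cell with no scaling for depth it was 3, 2 and 1, a scaling that moved the median of all genes by 0.488, 0.263 and -0.223. The 1 was IL18R1, lower in SCI than in sham blood at -0.644, while STAT4 and TBX21 fell short of 1.5-fold. Of all genes, 3828, 1845 and 460 were then higher and 144, 399 and 1324 lower past 1.5-fold. In the main setting 419, 839 and 841 were higher and 617, 826 and 680 lower. With equal class weights the count was 0, 1 and 1, and with the mean of per-cell CPM 0, 1 and 2. With all variable genes used for clustering it was 1, 0 and 2, the 1 being TBX21. No share of all genes was taken for these 3 settings. Under the other planned settings the count was 0, 0 and 2, and STAT4 and TBX21 were the genes. With the blood libraries pooled, 3 genes (TBX21, IL18R1 and IL18RAP) had their highest CPM among T cell clusters in the cytotoxic cluster. For IL18R1 this did not hold in naïve blood, where the cytotoxic cluster had 14.6 CPM and the CD4 T-like cluster 20.9. At resolution 1.5, 5 genes were highest in the cytotoxic cluster. These must include STAT4, IL12RB2 or both, which in the main clustering were highest in the CD8 T-like and Treg-like clusters. The other clustering seed and the settings without the cytotoxic cluster and without NK-marker cells were chosen after seeing the data. Without the cytotoxic cluster the count was also 0, 0 and 2, but the genes were STAT4 and IL18RAP. STAT4 was higher in SCI than in sham blood, and IL18RAP was lower, at -0.597 from few UMIs. TBX21 in SCI against sham blood reversed to -0.134. IL12RB2 in SCI against sham blood in the cytotoxic cluster reversed to -0.106 at resolution 1.5 and to -0.115 with the other seed, settings that drew the cluster smaller. The causes were not tested beyond what each setting changes. Of the values for single genes under the alternatives, 595 stayed within the counting interval of the main setting, 9 moved outside it and 3 reversed. A value could stay within the interval and still cross 1.5-fold. The call of IL12RB2 in SCI against sham blood in the Treg-like cluster changed under 3 of 8 settings, with log2 ratios from 0.531 to 0.747. Over the settings STAT4 in SCI against sham blood ran from 0.447 to 0.690 and TBX21 from -0.134 to 0.839. No paired analysis was possible because each condition had 1 library. Depth limits IL12RB2 and IL18RAP most, with at most 68 UMIs per library in T and NK cells.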

Other observations

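The human transcripts of the ligands were rare in the sorted cells. IL12B had at most 2 UMIs in any class of a blood library. IL18 was found in monocyte-like cells at 32.1 CPM in naïve (25 UMIs), 31.6 in sham (26 UMIs) and 17.1 in SCI blood (3 UMIs), and in basophil or mast-like cells at 33.5, 34.4 and 53.5 CPM from 9, 19 and 25 UMIs. The latter cells also held STAT4 and IL18R1 at levels above those of every T cell cluster, at 85.6 to 101 and 55.9 to 81.4 CPM, but IL18RAP at no more than 6.42 CPM.

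The ITGAX B-like cluster, in which TBX21 was also found, made up 4.68%, 1.14% and 1.01% of the human cells of naïve, sham and SCI blood. IL18R1 had at most 4.33 CPM in these cells, and IL18RAP and IL12RB2 had 1 UMI each over the blood libraries.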
